A study of Mus musculus with 53 samples.

Results

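The transcriptome of sciatic nerve from control mice was compared between 16 and 24 weeks of age. The comparison rests on the 13 samples labelled SD and without streptozotocin or dietary reversal, of 53 samples in the whole series, with 5 samples at 16 weeks and 8 at 24 weeks. They were chosen by these labels alone, and no expression value took part in the choice. All were C57BL/6J mice. The methods of the study describe males kept on the control diet from before the first time point, with no transgene or deletion in any group. The same interval was also covered by HFD mice, fed a high-fat diet over the same time (7 samples at each age), and by HFD-STZ mice, which were injected with low-dose streptozotocin while on that diet (5 samples at 16 weeks and 8 at 24 weeks). Mice of the 2 ages are different animals, killed at each time point, and the labels give neither a date nor a time of day for the dissections. A whole nerve holds Schwann cells, axons, fibroblasts, vessels and immune cells, with fat around it, so fewer cells of a type and less RNA per cell cannot be told apart in these data. The labels do not state that each sample is a separate mouse, so p-values measure the spread between these samples.

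Myelinating Schwann cells wrap axons in a membrane that is unusually rich in cholesterol and galactolipids. Cholesterol does not reach the nerve freely from blood lipoproteins, and Schwann cells make much of their own from acetyl-CoA through mevalonate, squalene and lanosterol. The transcription factor SREBP2, encoded by Srebf2, drives the genes of this pathway together, and its precursor is held back by the INSIG proteins while sterol is plentiful. In rodent nerve, demand for new membrane is greatest while myelin is being laid down in early life and is much lower once the sheath is complete, when its lipids are renewed slowly.

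The deposited values are log2 values per gene, normalized between samples by the authors. How many reads a value rests on is unknown. Of 49568 genes in the files, 17796 had a mean log2 value over the 13 samples of at least the log2 of 10 and no value above 22, and these were tested. Correlations between any 2 of the 13 samples ran from 0.938 to 0.993, and 0 pairs were identical. The tissue label was borne out by the Schwann cell markers Pmp22, Mbp and Prx, whose log2 values lay between 17.84 and 20.96 in all 13 samples. The 25 genes left out for a value above 22 in any sample of the series included Calca, a neuropeptide gene of sensory neurons, which lay at 9.23 to 9.37 in these 13 samples. Skeletal muscle transcripts varied widely between libraries. The mean over the 12 muscle markers was highest in 24-week sample 5 (14.88) and, at 16 weeks, in sample 2 (12.67), against 6.08 to 7.13 in the other 16-week samples and 6.16 to 11.81 in the other 24-week samples.

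No gene passed an adjusted p-value of 0.05 between SD mice at 24 and 16 weeks in limma's test on the 13 samples, so 0% of 17796 genes were called. The adjusted p-values began at 0.211. At a nominal p under 0.05, that is, before adjustment, there were 1862 genes, of which 966 (5.43%) had a higher mean and 896 (5.03%) a lower mean at 24 weeks. The balance of directions depends on scaling. With each sample centred on its median, 593 were higher and 1856 lower, and after quantile normalization 608 were higher and 1394 lower. Groups that did not overlap at all were seen for 26 genes (0.146%) with every 24-week sample above every 16-week sample, and for 62 genes (0.348%) in the other direction. The median log2 difference over all genes tested was 0.013. When all 8 groups of the series entered 1 fit, which draws its estimate of the spread from all 53 samples and therefore contains the same 13, 6 genes (0.0332% of 18073) were called higher and 39 (0.216%) lower in SD mice at 24 weeks. Of these 39, 10 encode enzymes of cholesterol synthesis.

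Genes with a lower mean at 24 weeks and the smallest p-values included Dcun1d4, Ugt8a, Col26a1, Sh3gl3 and Tekt5. Ugt8a encodes the enzyme that builds galactocerebroside, the main galactolipid of myelin (chromosome 3, 125865271 to 125938619, minus strand, GRCm38). It stood at 15.72, 15.90, 15.91, 15.91 and 15.96 at 16 weeks and ran from 14.87 to 15.52 with a median of 15.34 at 24 weeks, and 24-week samples 5 and 6 were the lowest. No 24-week sample reached the lowest 16-week sample. The log2 difference was -0.60 ± 0.10 (SE), which puts the 24-week mean at 66.2% of the 16-week mean on the linear scale (limma adjusted p = 0.211, exact permutation p = 0.000777, the smallest that 8 against 5 samples can give). With the mean of 7 myelinating Schwann cell markers as a covariate the log2 difference of Ugt8a was -0.37, and with the mean of 8 adipocyte markers it was -0.50.

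Dcun1d4, which takes part in attaching NEDD8 to cullins, had the narrowest spread, with 12.01, 12.02, 12.05, 12.09 and 12.12 at 16 weeks and values from 11.58 to 11.82 with a median of 11.72 at 24 weeks. Its log2 difference of -0.36 ± 0.06 was small and clear of overlap. Col26a1, a collagen chain, ran from 9.53 to 10.28 with a median of 10.06 at 24 weeks against 10.45, 10.56, 10.60, 10.80 and 10.96 at 16 weeks (log2 difference -0.67 ± 0.12). For Sh3gl3, an endophilin that shapes membranes during endocytosis, the log2 difference was -0.58 ± 0.11, and for Tekt5, a tektin known from sperm flagella, it was -0.70 ± 0.14, without overlap in either gene. All of these genes were called lower in the fit of all 8 groups. In the separate samples of HFD and HFD-STZ mice, Dcun1d4 differed between ages by -0.19 ± 0.07 and -0.29 ± 0.08, Col26a1 by -0.46 ± 0.13 and -0.59 ± 0.11, and Tekt5 by -0.65 ± 0.14 and -0.12 ± 0.16.

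Genes with a higher mean at 24 weeks were led by Stk32b, Ptgs2, Stmn4, Klf2, Gimap3 and Gcsam, most of them at low values. Stk32b, a protein kinase whose function is little known, was 4.69, 4.71, 4.82, 4.94 and 5.18 at 16 weeks and ran from 5.43 to 6.45 with a median of 5.93 at 24 weeks. Its groups did not overlap, with a log2 difference of 1.05 ± 0.17 (limma adjusted p = 0.211). Ptgs2, the inducible cyclooxygenase of prostaglandin synthesis, was 3.18, 3.63, 3.69, 3.78 and 3.80 at 16 weeks and from 4.27 to 5.74 with a median of 5.15 at 24 weeks. Here too the groups were separate, and the difference was 1.43 ± 0.26. Stmn4, a stathmin that binds tubulin, differed by 1.09 ± 0.21 without overlap. Klf2, a transcription factor of endothelial cells and lymphocytes, was the only well expressed gene of the group, at 11.18, 11.21, 11.30, 11.51 and 11.63 in 16-week and from 11.61 to 12.20 with a median of 11.95 in 24-week samples. Its groups overlapped in 1 sample of 8, and the log2 difference was 0.57 ± 0.11. Gimap3, a GTPase of lymphocytes, and Gcsam, a signalling protein of germinal centre B cells, differed by 1.39 ± 0.28 and 1.30 ± 0.27, each with 7 of 8 samples above all 16-week samples. In HFD and HFD-STZ mice the age difference was 0.34 ± 0.22 and -0.25 ± 0.22 for Stk32b and -0.09 ± 0.50 and 0.52 ± 0.36 for Ptgs2. For Klf2 it was -0.08 ± 0.18 and -0.02 ± 0.18, and for Stmn4 0.17 ± 0.23 and 0.57 ± 0.55. Gimap3 differed by 0.38 ± 0.24 and 0.31 ± 0.27 there, and Gcsam by 0.33 ± 0.26 and -0.22 ± 0.44. Each of these genes had a lower 16-week mean in SD mice than in HFD or HFD-STZ mice. For Stk32b these means were 4.87, 5.46 and 5.85, and for Klf2 11.37, 11.72 and 11.48. Stk32b and Gimap3 were also called higher in the fit of all 8 groups, together with Dact2, Fbxl8, Plxna4 and Tph1, the first enzyme of serotonin synthesis outside the brain.

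**Figure D1:**
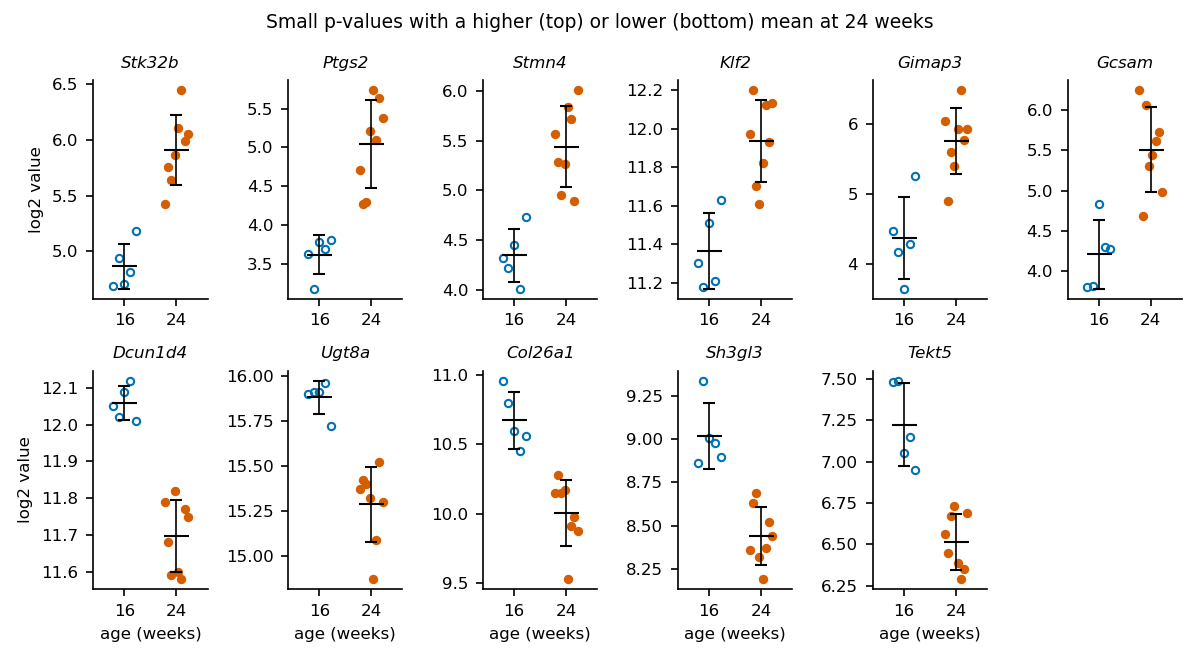
Log2 values (vertical axes, a separate scale in each panel) of leading genes by p-value with a higher mean (upper row) and with a lower mean (lower row), in SD mice at 16 weeks (open circles, 5 samples) and 24 weeks (filled circles, 8 samples). Horizontal lines are group means and bars are standard deviations. The groups did not overlap for Stk32b, Ptgs2 and Stmn4 or for any gene in the lower row, whereas Klf2, Gimap3 and Gcsam overlapped in 1 of 8 samples each.

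The cholesterol synthesis genes were examined in full, a choice made after their values were seen. All 20 enzymes from HMG-CoA synthase to cholesterol had a lower mean at 24 weeks, against 47.1% of all genes tested, with a median log2 difference of -0.47 and a range of -0.78 to -0.08. None passed the adjusted threshold on the 13 samples. At a nominal p under 0.05 there were 19 of 20, where 5.03% of all genes were lower, and in 8 of 20 the groups did not overlap, where 0.348% of all genes were lower without overlap. Taken as the mean over the 20 enzymes, the log2 value was 12.16, 12.17, 12.35, 12.37 and 12.65 in the 16-week samples and ran from 11.50 to 12.08 in the 24-week samples, with a median of 11.90. The ranges of this mean were separate. All 20 means stayed lower with each sample centred on its median and after quantile normalization, with medians of -0.56 and -0.48.

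In the first stretch of the pathway, up to squalene, 9 of 9 enzymes were lower in mean (47.1% of all genes). At a nominal p under 0.05 there were 8 of 9 (5.03% of all genes). Hmgcs1, HMG-CoA synthase, was 15.74, 15.79, 15.81, 15.95 and 16.15 at 16 weeks and ran from 15.15 to 15.81 with a median of 15.42 at 24 weeks. All but 1 of its 24-week samples were below all 16-week samples, and the log2 difference was -0.44 ± 0.13 (limma adjusted p = 0.349). Idi1, the isomerase that yields dimethylallyl diphosphate, was 13.42, 13.49, 13.55, 13.62 and 13.92 at 16 weeks and from 12.58 to 13.30 with a median of 13.04 at 24 weeks, without overlap (log2 difference -0.63 ± 0.13). Mvd, Fdps and Fdft1, which decarboxylate mevalonate diphosphate, build farnesyl diphosphate and join it to squalene, differed by -0.58 ± 0.16, -0.50 ± 0.18 and -0.48 ± 0.13. Pmvk and Mvk, the 2 kinases between, differed by -0.41 ± 0.15 and -0.31 ± 0.13. Ggps1, which leads away from sterols towards geranylgeranyl groups, was the exception, with overlapping groups and a difference of -0.08 ± 0.09.

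In the second stretch, from squalene to cholesterol, 11 of 11 enzymes were lower in mean (47.1% of all genes). All 11 had a nominal p under 0.05 (5.03%), and 6 did not overlap between ages (0.348%). Sqle, squalene epoxidase, was 13.34, 13.45, 13.47, 13.63 and 14.00 at 16 weeks and ran from 12.70 to 13.38 with a median of 13.11 at 24 weeks (log2 difference -0.52 ± 0.13). Cyp51, the lanosterol demethylase, was 13.30, 13.34, 13.43, 13.45 and 13.66 at 16 weeks and ran from 12.42 to 13.14 with a median of 12.90 at 24 weeks. Its groups were separate, with a difference of -0.58 ± 0.13. The largest difference of the pathway was in Tm7sf2, a sterol reductase, at -0.78 ± 0.18, and its highest 24-week value of 9.84 lay just under its lowest 16-week value of 9.86. Msmo1, Nsdhl, Sc5d and Dhcr7, which act on the C4 methyl groups or on double bonds of the ring, also had no overlap. Their differences were -0.62 ± 0.15, -0.45 ± 0.10, -0.46 ± 0.10 and -0.45 ± 0.09. Lss, which closes the ring to lanosterol, and Hsd17b7 differed by -0.47 ± 0.13 and -0.46 ± 0.12, with 7 of 8 samples below all 16-week samples. Ebp, a sterol isomerase, differed least in this stretch, by -0.25 ± 0.08.

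Of 7 regulators and uptake genes, 6 had a lower mean (47.1% of all genes), with a median log2 difference of -0.15. At a nominal p under 0.05, 1 of the 7 was lower, where 5.03% of all genes were, and 1 gene is too few to set the list apart. That gene was Stard4, a carrier of cholesterol between membranes, which differed by -0.29 ± 0.09. Srebf2 itself differed by -0.15 ± 0.10 and Scap, its escort, by -0.05 ± 0.08. Insig1 and Insig2 differed by -0.26 ± 0.13 and 0.04 ± 0.11. The 2 ages overlapped in each of these genes. Exons of Cyp51, Fdft1 and Ggps1 overlap Akap9, Ctsb and Arid4b on the opposite strand, and those of Tm7sf2 overlap Vps51 on the same strand, and as the study describes the libraries as non-stranded, reads from these pairs cannot be told apart. Exons of Hmgcs1, Idi1, Fdps and Lss overlap other annotated transcripts as well.

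**Figure D2:**
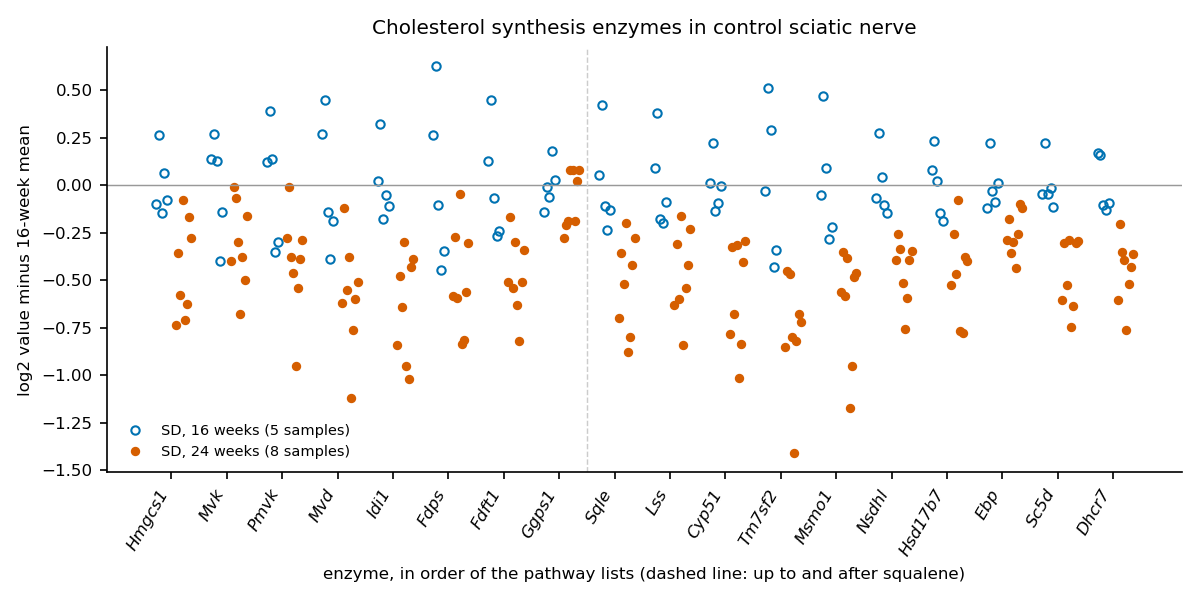
Log2 value of each cholesterol synthesis enzyme shown minus its mean in SD mice at 16 weeks (vertical axis), by enzyme, for 5 samples at 16 weeks (open circles) and 8 samples at 24 weeks (filled circles). The dashed line separates the steps up to squalene from those after it. Most 24-week samples lie below 0 in all enzymes except Ggps1, and the 2 groups are separate in Idi1, Cyp51, Tm7sf2, Msmo1, Nsdhl, Sc5d and Dhcr7.

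Promoters are shown for enzymes that passed the adjusted threshold in HFD mice (described further on), though not on the 13 SD samples, and that have an entry in the RefSeq promoter table. Each sequence holds the 250 bases before the transcription start, 5′ to 3′, in GRCm38.p6. Capitals mark the letters CCAAT on either strand (ATTGG when read from the other strand), where the factor NF-Y is known to bind beside SREBP2, and TCACNCCAC, a form of the sterol regulatory element, on either strand. The 2 motifs do not overlap. The regions are chr10:76531355-76531604 on the plus strand for Lss, chr8:122443423-122443672 on the minus strand for Mvd, chr5:4104698-4104947 on the minus strand for Cyp51, chr13:119690101-119690350 on the plus strand for Hmgcs1 and chr9:42264301-42264550 on the minus strand for Sc5d.
Lss: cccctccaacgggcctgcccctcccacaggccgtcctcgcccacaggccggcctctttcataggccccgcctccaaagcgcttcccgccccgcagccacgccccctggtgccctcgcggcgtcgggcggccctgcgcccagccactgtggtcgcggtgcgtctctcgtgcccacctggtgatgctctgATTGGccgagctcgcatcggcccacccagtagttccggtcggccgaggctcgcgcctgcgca
Mvd: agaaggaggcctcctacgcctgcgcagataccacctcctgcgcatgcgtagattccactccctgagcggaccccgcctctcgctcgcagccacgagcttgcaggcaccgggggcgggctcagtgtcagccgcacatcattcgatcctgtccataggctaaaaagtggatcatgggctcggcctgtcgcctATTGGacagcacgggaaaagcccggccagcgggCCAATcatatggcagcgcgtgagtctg
Cyp51: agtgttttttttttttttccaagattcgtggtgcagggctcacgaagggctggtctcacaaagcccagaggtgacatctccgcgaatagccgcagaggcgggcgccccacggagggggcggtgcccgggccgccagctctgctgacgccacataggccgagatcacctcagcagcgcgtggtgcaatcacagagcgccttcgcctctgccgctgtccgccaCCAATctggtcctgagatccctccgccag
Hmgcs1: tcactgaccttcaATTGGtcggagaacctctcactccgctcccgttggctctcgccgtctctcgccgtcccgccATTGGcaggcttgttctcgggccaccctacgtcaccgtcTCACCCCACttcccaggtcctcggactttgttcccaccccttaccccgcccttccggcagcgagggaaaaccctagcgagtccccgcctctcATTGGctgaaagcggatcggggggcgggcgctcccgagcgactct
Sc5d: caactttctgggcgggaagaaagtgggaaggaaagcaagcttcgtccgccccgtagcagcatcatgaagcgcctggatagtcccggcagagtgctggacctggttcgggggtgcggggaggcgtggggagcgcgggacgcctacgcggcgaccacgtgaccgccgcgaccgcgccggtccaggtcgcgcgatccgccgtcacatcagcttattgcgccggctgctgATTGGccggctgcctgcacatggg

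Of the 20 enzymes, 15 had an entry in that table, and CCAAT was found in 15 of 15, against 37.5% of 27025 genes with a promoter of this length. The strict TCACNCCAC form was found in 1 of 15, in Hmgcs1, starting at base -137, against 1.22% of genes. These matches describe the letters of the window only.

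The fit of all 8 groups called 10 of the 20 enzymes lower in SD mice at 24 weeks, where 0.216% of all genes were called lower. They included Cyp51, Dhcr7, Hsd17b7, Idi1, Lss, Msmo1, Nsdhl, Sc5d and Tm7sf2, and Sc5d had an adjusted p-value of 0.0169 in limma's test. With the run of consecutive library numbers added as a covariate, 12 of 20 were called, now with Hmgcs1 and Sqle, where 0.581% of all genes were called lower and 0.0941% higher. These fits hold the same 13 control samples and are not independent of the fit above. They take their estimate of the spread from the other groups as well, under the assumption that all groups vary alike.

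HFD and HFD-STZ mice provide other samples for the same interval. In HFD mice, 12 of 18374 genes (0.0653%) passed the adjusted threshold, all lower at 24 weeks, and 7 of them were members of the cholesterol list, among them Lss, Mvd, Cyp51, Hmgcs1, Sc5d and Stard4. The others included Aacs, which activates acetoacetate for lipid synthesis, and Ugt8a. In SD mice all 12 had a lower mean, and 11 a nominal p under 0.05, where 47.1% and 5.03% of all genes did. Lss fell in HFD mice with a log2 difference of -0.41 ± 0.06 (limma adjusted p = 0.022), beside -0.47 ± 0.13 in SD mice. The 20 enzymes had a median log2 difference of -0.42 in HFD mice, with 20 of 20 lower in mean and 18 at a nominal p under 0.05, where 44.4% and 3.22% of all genes were. The number of genes called lower in HFD mice depended on single samples. It was 0 without HFD 24-week sample 7 or HFD 16-week sample 6 and 17 without HFD 24-week sample 2.

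In HFD-STZ mice none of 17966 genes passed the adjusted threshold in limma's test, and 2251 had a nominal p under 0.05. Of the 20 enzymes, 17 had a lower mean and 10 a nominal p under 0.05, where 49.5% and 6.68% of all genes did, with a median of -0.33. Idi1 differed by -0.55 ± 0.13 there, whereas Mvk, Pmvk and Ebp had a higher mean at 24 weeks (0.02 ± 0.18, 0.02 ± 0.16 and 0.14 ± 0.09). The mean log2 value over the 20 enzymes ran from 11.98 to 12.37 at 16 weeks and from 11.52 to 11.81 at 24 weeks in HFD mice, without overlap, and from 11.91 to 12.26 and from 11.40 to 12.16 in HFD-STZ mice, with overlap. The difference of the age effect between SD and HFD mice was tested by an interaction term, and 0 of 20 enzymes had a nominal p under 0.05, with SD minus HFD differences of -0.34 to 0.05. Between SD and HFD-STZ mice 1 of 20 did, Ebp, with a difference of -0.40 ± 0.12 (unadjusted p = 0.00247 and adjusted p = 0.757 in limma's test). Over all genes, 0 passed the adjusted threshold for either interaction, and 302 (1.67% of 18091) and 836 (4.68% of 17874) had a nominal p under 0.05. The widest gap between SD and HFD mice, in Tm7sf2, was -0.34 ± 0.22 (unadjusted p = 0.132 in limma's test), so differences of this size could not be told from the spread between samples.

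**Figure D3:**
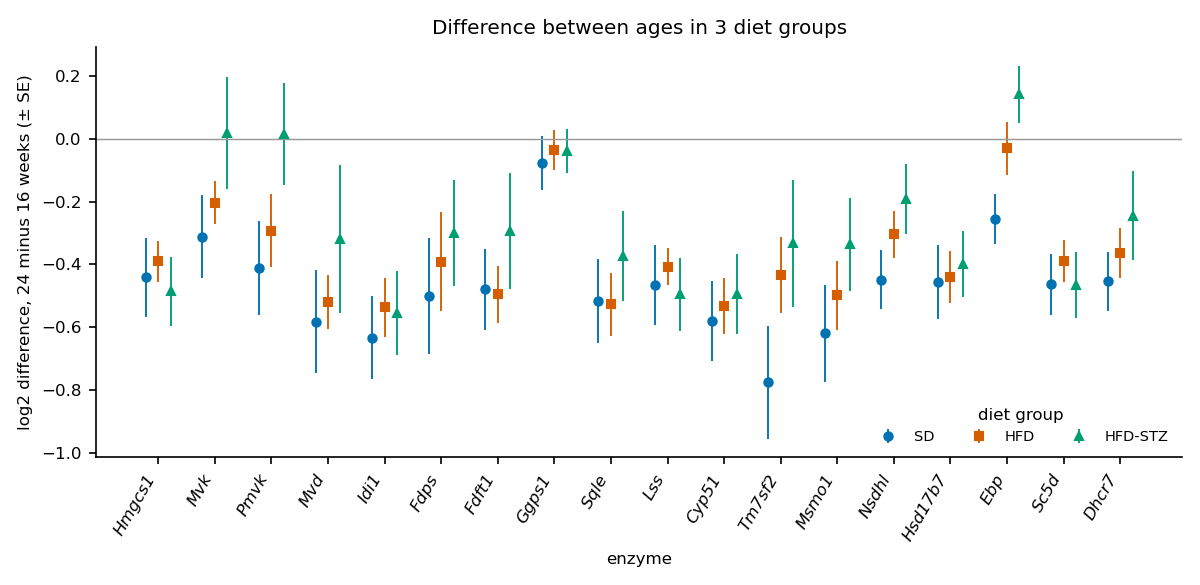
Log2 difference between 24 and 16 weeks (vertical axis, symbols, with bars of 1 SE from limma) for the cholesterol synthesis enzymes shown in SD (circles), HFD (squares) and HFD-STZ mice (triangles). Nearly all symbols lie below 0, while Mvk, Pmvk and Ebp lie slightly above 0 in HFD-STZ mice.

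All 9 listed genes of galactolipid and very long chain fatty acid synthesis had a lower mean at 24 weeks, 7 with a nominal p under 0.05 and 2 without overlap. Of all genes tested, 47.1%, 5.03% and 0.348% did. The median log2 difference of the 9 was -0.40. Beside Ugt8a, Fa2h makes the 2-hydroxy fatty acids of galactocerebroside, and it was 15.39, 15.59, 15.75, 15.75 and 15.87 at 16 weeks and ran from 14.55 to 15.45 with a median of 15.19 at 24 weeks. Its log2 difference was -0.55 ± 0.14, and 7 of 8 samples lay below all 16-week samples, the closest of them by less than the printed digits show. Elovl7, an elongase, differed by -0.46 ± 0.12. Ugt8a and Fa2h were called lower in the fit of all 8 groups, in which 0.216% of all genes and 0 of 17 myelin protein genes were. The myelin protein genes Pmp2, Mal and Pmp22 missed the threshold in that fit (limma adjusted p = 0.0704, 0.0782 and 0.0939). Their log2 differences of -0.70, -0.50 and -0.54 were close to those of Ugt8a and Fa2h, so these calls do not set the 2 lists apart. With the library-number run as a covariate, 5 of 9 myelin lipid genes and 3 of 17 myelin protein genes were called lower, where 0.581% of all genes were. The 3 were Mal, Pmp2 and Pmp22 (limma adjusted p = 0.0215, 0.0238 and 0.0238). The genes of this paragraph other than Ugt8a and Pmp22 were named after their values were seen.

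All 17 genes for proteins of peripheral myelin had a lower mean, 8 had a nominal p under 0.05 and 2 did not overlap, with a median of -0.28. Of all genes tested, 47.1% had a lower mean, 5.03% were lower at a nominal p under 0.05 and 0.348% were lower without overlap. After quantile normalization 15 of 17 were lower, with a median of -0.21. Pmp22, a membrane protein whose dosage matters in inherited neuropathy, was 20.31, 20.48, 20.64, 20.68 and 20.96 at 16 weeks and ran from 19.58 to 20.38 with a median of 20.13 at 24 weeks (log2 difference -0.54 ± 0.18), and 7 of 8 samples lay below all 16-week samples. Mbp, which holds the cytoplasmic faces of the sheath together, differed by -0.24 ± 0.18 and had a nominal p of 0.194. The genes without overlap included Pmp2, a fatty acid binding protein of myelin picked after its values were seen, at -0.70 ± 0.15.

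All 8 Schwann cell identity genes had a lower mean, and 0 had a nominal p under 0.05. Of all genes tested, 47.1% had a lower mean, and 5.03% were lower and 5.43% higher at a nominal p under 0.05. Sox10, which specifies the lineage, differed by -0.17 ± 0.17, and Egr2, which drives myelin genes, by -0.32 ± 0.15. Of 14 genes of immature and repair Schwann cells, 8 were higher and 6 lower in mean, 3 and 2 of them at a nominal p under 0.05. Jun, the regulator of the repair state, differed by 0.34 ± 0.12, Ngfr by -0.04 ± 0.18, and Gfap by -0.77 ± 0.27. Of 14 node and paranode genes, 5 were lower and 2 higher at a nominal p under 0.05, and Cntn1, the paranodal adhesion protein on the axon side, was lower by a log2 difference of -0.41 ± 0.12. The non-myelinating Schwann cell markers were all lower in mean (6 of 6, median -0.21), with Scn7a at -0.18 ± 0.09. The mean over the 7 myelinating Schwann cell markers ran from 17.58 to 17.97 at 16 weeks and from 17.11 to 17.81 at 24 weeks. With this mean as a covariate, all 20 cholesterol enzymes had a lower mean, 7 with a nominal p under 0.05, whereas 9 of 17 myelin protein genes had a lower mean, 1 with a nominal p under 0.05. Among all genes tested the number at a nominal p under 0.05 was 339 with this covariate and 1862 without it. The markers include Pmp22 and Mbp, so the myelin list is partly adjusted for itself.

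All 8 adipocyte markers had a higher mean at 24 weeks, against 52.9% of all genes, 7 with a nominal p under 0.05 (5.43% of all genes were higher), and their median log2 difference was 1.93. Adipoq, which encodes adiponectin, was 8.34, 8.89, 11.21, 12.03 and 12.74 at 16 weeks and ran from 10.70 to 13.34 with a median of 12.74 at 24 weeks. The 16-week samples spread over more than 4 log2 units, and 4 of 8 of the 24-week samples lay above all of them (log2 difference 1.92 ± 0.69, limma adjusted p = 0.437). Lep, which encodes leptin, differed by 2.28 ± 0.67 and Plin1, the main coat protein of their lipid droplets, by 1.93 ± 0.66. The marker mean was 8.09, 8.96, 10.79, 11.67 and 12.47 in the 16-week samples and 10.41 to 13.13 in the 24-week samples, so the groups overlapped. Genes of triglyceride synthesis and storage went with them: 14 of 14 had a higher mean, 9 with a nominal p under 0.05, with a median of 0.85. Dgat2, which catalyses the last step of triglyceride synthesis, was 10.43, 10.73, 10.91, 11.75 and 12.80 at 16 weeks and ran from 11.10 to 13.29 with a median of 12.33 at 24 weeks (difference 1.11 ± 0.41). With the adipocyte mean as a covariate, 0 of these 14 genes had a nominal p under 0.05, and 526 of all genes did, against 1862 without it.

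The adipocyte mean and the cholesterol enzymes differed between ages in the same samples. With the adipocyte mean as a covariate, 20 of 20 enzymes had a lower mean and 9 a nominal p under 0.05, against 19 without it. Among all genes tested the number at a nominal p under 0.05 was 526 with this covariate and 1862 without it, so the drop was not particular to the enzymes. The adipocyte markers had a median log2 difference between ages of 0.19 in HFD mice and 1.37 in HFD-STZ mice, where 18 and 10 of the 20 enzymes had a nominal p under 0.05. The part of fat in the difference of the enzymes was not tested. Of 15 genes of fatty acid synthesis, 9 were higher and 6 lower in mean, 3 and 2 with a nominal p under 0.05 (5.43% and 5.03% of all genes). Fasn, fatty acid synthase, differed by 0.36 ± 0.38 and overlapped widely. Scd2, the desaturase of nerve and brain, was 17.60, 17.70, 17.76, 17.85 and 17.92 at 16 weeks and ran from 17.24 to 17.77 with a median of 17.54 at 24 weeks (difference -0.22 ± 0.11), and Elovl6, picked after its values were seen, differed by -0.54 ± 0.13 and was called lower in the fit of all 8 groups.

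Muscle transcripts had a higher mean at 24 weeks in 11 of 11 markers tested, 0 of them with a nominal p under 0.05. Acta1, skeletal muscle actin, was 7.40, 8.13, 9.25, 9.89 and 16.48 at 16 weeks and ran from 7.38 to 18.49 with a median of 13.44 at 24 weeks, so both ages held high and low samples around the log2 difference of 3.19 ± 1.91. Ckm, muscle creatine kinase, and Myh4, a fast myosin, differed by 2.89 ± 1.93 and 2.18 ± 2.12. Without the library highest in muscle at each age, 1 of 8 adipocyte markers and 3 of 14 triglyceride genes had a nominal p under 0.05. Of all genes 945 did, against 1862 with every sample. The enzymes of cholesterol synthesis kept 20 of 20 lower means.

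Red blood cell transcripts were higher in mean in 6 of 6 genes (52.9% of all genes), 5 with a nominal p under 0.05 (5.43%), with a median log2 difference of 2.24. Hba-a1, a globin, was 7.57, 8.48, 8.65, 9.04 and 10.12 at 16 weeks and ran from 8.06 to 12.46 with a median of 11.74 at 24 weeks. All but 1 of the 24-week samples lay above all 16-week samples, and the exception, 24-week sample 6, was at 8.06 (log2 difference 2.43 ± 0.63). Without that sample 4 globin genes, Hba-a1, Hba-a2, Hbb-bs and Hbb-bt, passed the adjusted threshold as the only genes in limma's test. It was the lowest 24-week sample in these genes, so leaving it out widens their difference by construction, and no conclusion is drawn from this. With every sample kept, these 4 genes and Alas2 were also called higher in the fit of all 8 groups with the library-number run as a covariate (limma adjusted p = 0.0132 for Hba-a1 and 0.0139 for Alas2), and were not called without that covariate (0.105 and 0.131). Hba-a1 and Hba-a2, like Hbb-bs and Hbb-bt, are nearly identical copies, so the share of reads given to each is uncertain. Alas2, the first enzyme of haem synthesis in red cell precursors, differed by 2.25 ± 0.51. Whether the nerves were perfused is not given in the sources used here, and the part of retained blood was not tested.

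A higher mean at 24 weeks was seen in 9 of 9 macrophage markers (2 with a nominal p under 0.05, median 0.45), 6 of 6 mast cell markers (4, median 1.30), 5 of 5 B and plasma cell markers (2, median 0.91) and 4 of 4 T cell markers (2, median 0.59). Of all genes tested, 52.9% had a higher mean and 5.43% were higher at a nominal p under 0.05. The macrophage receptors Adgre1 and Csf1r differed by 0.47 ± 0.27 and 0.64 ± 0.34. Cma1, mast cell chymase, was 4.91, 7.45, 8.94, 8.97 and 9.58 at 16 weeks and ran from 8.69 to 10.09 with a median of 9.46 at 24 weeks. The 16-week sample at 4.91 stood well below all others (log2 difference 1.43 ± 0.60), and Cpa3, another mast cell protease, was at 4.90 in the same sample. Jchain and Cd79a of the B lineage differed by 1.15 ± 0.49 and 0.30 ± 0.28, and Cd3e and Trac of T cells by 0.69 ± 0.26 and 0.73 ± 0.27. Ccl21a, a lymph node and lymphatic chemokine, was 3.56, 3.93, 4.34, 5.60 and 6.10 at 16 weeks and ran from 4.69 to 9.75 with a median of 7.32 at 24 weeks, while Cr2 of follicular B cells differed by 0.01 ± 0.32, and 4 of 4 lymph node genes tested were higher in mean, 2 with a nominal p under 0.05. For MHC class II, 5 of 7 genes were higher and 2 lower in mean, with H2-Aa at 0.29 ± 0.15 and Cd74 at 0.38 ± 0.18. The only 1 of the 7 with a nominal p under 0.05 was lower at 24 weeks. None of these genes passed the adjusted threshold in limma's test.

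**Figure D4:**
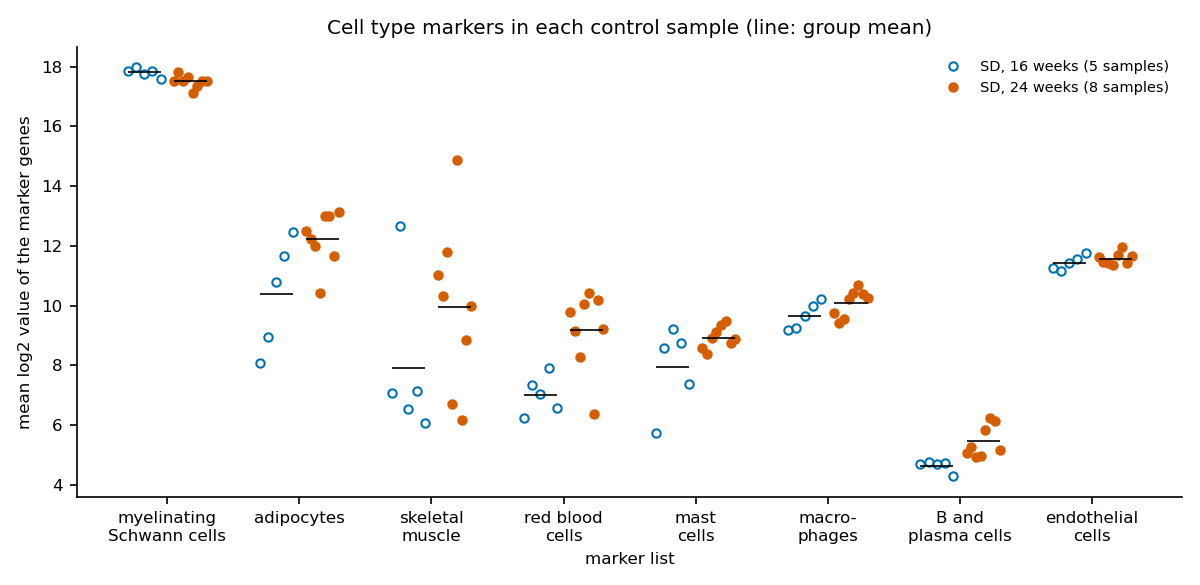
Mean log2 value over the marker genes of 8 cell types (vertical axis) in each SD sample at 16 weeks (open circles, 5 samples) and 24 weeks (filled circles, 8 samples), with horizontal lines at the group means. Adipocyte, red blood cell and B and plasma cell means are higher at 24 weeks, with overlap for the first 2 and none for the third, skeletal muscle varies widely, with the highest sample at 14.88 at 24 weeks and 12.67 at 16 weeks, and the myelinating Schwann cell means lie between 17.11 and 17.97.

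For endothelial cells, 6 of 7 were higher in mean (52.9% of all genes) and 0 had a nominal p under 0.05 (5.43%), with Pecam1 at 0.18 ± 0.22 and Cdh5 at 0.41 ± 0.24. Pericyte and smooth muscle genes gave 6 of 7 higher and 0 at this level (Rgs5 0.31 ± 0.17, Myh11 0.47 ± 0.35), and fibroblast and perineurial genes 9 of 9 and 2 (Pdgfra 0.32 ± 0.27, Slc2a1 0.33 ± 0.20). Of 17 collagen chains, 12 had a lower mean (47.1% of all genes), 5 with a nominal p under 0.05 (5.03%), among them Col1a1 at -0.27 ± 0.10. Col3a1 differed by -0.14 ± 0.20. Lox, which cross-links collagen, was 14.95, 15.17, 15.20, 15.38 and 15.48 at 16 weeks and ran from 14.34 to 15.04 with a median of 14.63 at 24 weeks. Its log2 difference was -0.58 ± 0.12, and it was called lower in the fit of all 8 groups, whereas its relative Loxl1 had a higher mean (0.85 ± 0.29). Of the 17 genes of collagen processing, 11 were higher and 6 lower in mean. Of 13 neuronal markers only 6 were tested, and 3 were higher and 3 lower in mean. At a nominal p under 0.05, 0 were higher and 1 was lower. Prph differed by -0.05 ± 0.19. The skin keratins Krt5 and Krt14 were at most 1.61 in all 13 samples and were not tested, and 2 of 3 epithelial genes tested were higher in mean.

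Of 15 core clock genes, 12 were higher in mean (52.9% of all genes) and 2 had a nominal p under 0.05 (5.43%). Among them Nr1d1, a repressor of the loop, was 12.18, 12.59, 12.65, 12.77 and 12.94 at 16 weeks and ran from 12.59 to 13.68 with a median of 13.11 at 24 weeks (difference 0.51 ± 0.19). Its exons overlap those of Thra on the opposite strand. Arntl, its opposite in phase, differed by -0.16 ± 0.19, Npas2 by 0.03 ± 0.28 and Per2 by 0.27 ± 0.29. In the clock output list 9 of 10 were higher, with Dbp at 0.45 ± 0.22, and the time of day of each dissection cannot be told apart from age here. Immediate early genes were higher in 14 of 18, 3 with a nominal p under 0.05, and 1 was lower at that level. Fos and Egr1 differed by 0.69 ± 0.46 and 0.46 ± 0.35 with wide overlap. In the insulin and IGF list 12 of 14 were higher in mean and 6 had a nominal p under 0.05, with Igf1 at 0.59 ± 0.36 and Igfbp3, picked after its values were seen, at 1.01 ± 0.35. The adipocyte marker mean is also higher at 24 weeks, and its part in the insulin and IGF list was not tested.

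All 23 nuclear genes of oxidative phosphorylation had a higher mean, 22 of 23 with each sample centred on its median, yet 0 had a nominal p under 0.05, and the median log2 difference was 0.24. Ndufs1 and Cox5a differed by 0.28 ± 0.21 and 0.34 ± 0.33, and the muscle markers are high in the samples where these 2 genes are highest. Cytosolic ribosomal protein genes were higher in 17 of 22 and replication-dependent histones in 5 of 6, 0 in either list at a nominal p under 0.05, with Rplp0 at 0.06 ± 0.10. Of 20 cell cycle genes 9 were higher and 11 lower, 0 with a nominal p under 0.05. Mki67 and Top2a, both made by dividing cells, differed by 0.03 ± 0.26 and -0.05 ± 0.28. In the ageing and senescence list 8 of 10 were higher (52.9% of all genes) and 1 had a nominal p under 0.05 (5.43%). Cdkn1a, which encodes p21, differed by -0.35 ± 0.18, and Cdkn2a, the locus of p16 and a common marker of senescent cells, was 3.80, 4.07, 4.10, 4.39 and 4.54 at 16 weeks and ran from 3.66 to 4.66 with a median of 4.16 at 24 weeks.

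Heat shock genes were higher in 5 of 12, unfolded protein response genes in 5 of 15, glucocorticoid and fasting responsive genes in 4 of 15 and interferon-stimulated genes in 6 of 17, with 2, 0, 0 and 1 of these at a nominal p under 0.05. Hspa1a differed by 0.00 ± 0.17, Hspa5 by -0.08 ± 0.15, Fkbp5 by -0.09 ± 0.26 and Pdk4 by 0.84 ± 0.43. The antiviral genes Irf7 and Ifit3 differed by 0.21 ± 0.14 and -0.21 ± 0.21. Complement and chemokine genes were higher in mean in 12 of 17, 1 with a nominal p under 0.05, with C3 at 0.17 ± 0.25 and Ccl2 at -0.12 ± 0.18. In the heat shock list 1 gene was lower at that level. Of all genes tested, 52.9% were higher in mean and 5.43% were higher at that level, so 1 gene of 17 is near the share of all genes.

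**Figure D5:**
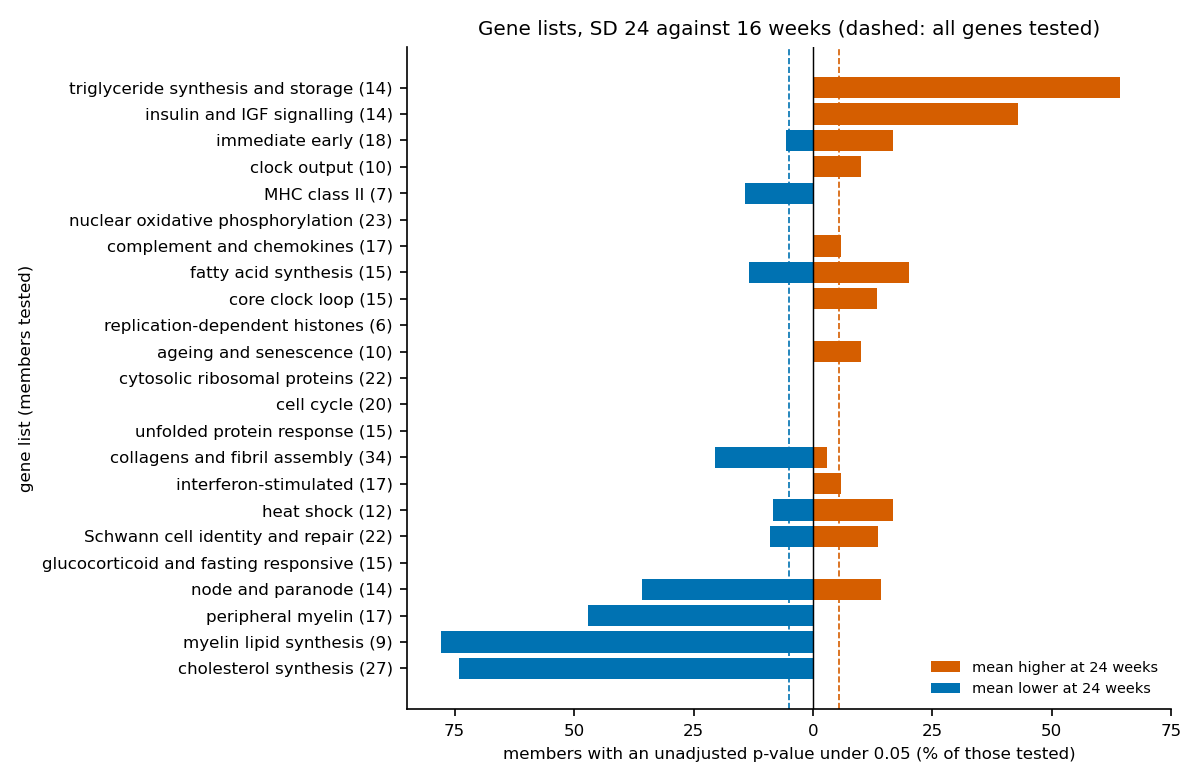
Share of each gene list with a nominal p under 0.05 in limma's test of SD mice at 24 against 16 weeks (horizontal axis, percent of members tested, numbers in parentheses), drawn to the right for members with a higher mean at 24 weeks and to the left for a lower mean. Dashed lines mark all genes tested, 5.43% higher and 5.03% lower, and the cholesterol list, shown here with its 7 regulators (20 of 27 lower), and the myelin lipid list (7 of 9 lower) reach farthest to the left. No member of any list passed the adjusted threshold.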

How the data were processed

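Bulk RNA-seq of mouse sciatic nerve was used as deposited: 53 files, each with 49568 gene symbols and a log2 value that the authors had normalized between samples. The submitters' processing notes name HISAT2, featureCounts, DESeq2 and mm10. Which step gave the log2 values is not given in the sources used here, and the labels and the paper name different library kits. The depth behind a value is unknown. Genes with a mean log2 value under the log2 of 10 in the samples compared or any value above 22 (25 genes) were left out, with no pseudocount.

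Ages were compared within each diet with limma 3.58.1 in R 4.3.3 (empirical Bayes with an intensity trend), followed by Benjamini-Hochberg correction across every gene tested, and differences of the age effect by an interaction term. Exact permutation tests over the 13 samples were 2-sided. Scripts were tested on simulated data, and figures were drawn in Python 3.11.15. Named were leading genes by p-value in each direction (up to 6), preset members of each list and genes chosen after their values were seen, among them the globins, Alas2, Fa2h, Elovl7, Pmp2, Ccl21a, Loxl1, Gfap and those called only in HFD mice or with all 8 groups. Some genes are counted in their lists but not reported here singly. Members, lists and alternatives were chosen with earlier results of these data known, and an exploratory run preceded the final one. Alternatives were filters, scalings, variance priors, marker means as covariates, library-number runs, all 8 groups in 1 fit and leaving out each sample. Promoters are from RefSeq (GRCm38.p6) and gene positions from GENCODE (GRCm38).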

Additional observations from a re-analysis of the deposited data

Results flagged for a closer look

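In groups of 5 or 8 SD samples, the highest or lowest sample stood apart by Dixon's criterion in 20 of 332 groups examined, where chance gives about 16.6. Among the genes with the smallest p-values these were Ptgs2 at 16 weeks (3.18 in sample 2) and Ugt8a at 16 weeks (15.72 in sample 5). In the cholesterol and myelin lists they were Tm7sf2 (8.88), Insig2 (11.69) and Pmp2 (7.02), all in 24-week sample 5. The same sample was high for Ndufs1 (13.39). The 16-week sample 2 was high for Acta1 (16.48), Ckm (15.32), Cox5a (11.87) and for the means of the skeletal muscle markers (12.67) and the oxidative phosphorylation genes (13.01). The 24-week sample 6 was low for the globins Hbb-bs (8.30), Hba-a2 (7.03) and Hbb-bt (5.34) and high for Npas2 (8.69). The remaining values were Cd3e (3.28 in 24-week sample 8), Prph (9.37 in 24-week sample 2), Krt14 (1.08 in 16-week sample 3), and in 16-week sample 5 Col14a1 (12.56) and the mean of the B and plasma cell markers (4.29).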

How the results depend on the processing

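All 20 cholesterol enzymes had a lower mean at 24 weeks under every alternative run, including those added after seeing the data. The log2 difference of Ugt8a ran from -0.68 to -0.37 (limma adjusted p 0.0059 to 1). With all 8 groups in 1 fit, 6 genes were called higher and 39 lower in SD mice, and with the library-number run as a covariate 17 and 105, with 2804 at an unadjusted p-value under 0.05 (1862 on the 13 samples alone). At that level, the adipocyte covariate left 526 genes, 9 enzymes, 1 myelin, 3 myelin lipid, 0 adipocyte (5 with a higher mean) and 0 triglyceride genes, and called 1 gene lower. The adipocyte and muscle covariates together left 640, 10, 1, 1, 0 (5 with a higher mean) and 0 (7 with a higher mean). The Schwann cell covariate left 339, 7, 1 (9 with a lower mean), 1, 0 and 1. The red blood cell covariate left 1044 genes, 4 myelin, 4 myelin lipid, 2 adipocyte, 0 red blood cell and 5 triglyceride genes. Adipocyte markers under the adipocyte covariates, and red blood cell markers under theirs, are adjusted for their own mean. Their counts of 0 were therefore largely fixed in advance. The macrophage covariate left 5 myelin, 1 adipocyte and 2 triglyceride genes. Without the library highest in muscle at each age there were 945 genes, 1 adipocyte and 3 triglyceride genes. The run as a block left 3 adipocyte genes and quantile normalization 4 myelin genes. Without a filter, 2 genes were called higher in HFD mice and 1 for the difference between SD and HFD mice, and with all 8 groups 1 was higher and 12 lower in HFD-STZ mice. The cause of these shifts was not tested.

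Leaving out each sample gave 0 to 4 genes called higher and 0 lower in SD mice, and 1154 (without 16-week sample 1) to 2853 (without 16-week sample 5) at an unadjusted p-value under 0.05, with 1176 without 16-week sample 2. Of these, 15 to 19 were enzymes, 5 (without 16-week sample 1) to 11 myelin, 5 to 7 myelin lipid, 4 (without 16-week sample 1) to 8 adipocyte, 5 to 6 red blood cell and 4 (without 16-week sample 2) to 10 triglyceride genes. In HFD mice 0 to 1 genes were called higher and 0 to 17 lower, and in HFD-STZ mice 0 to 1 higher.

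A reversal was counted where both estimates exceeded their SE, a definition adopted after the number of sign changes was known. Of 3718 values for 124 named genes under 30 alternatives, 130 changed sign in 40 genes, 125 of them within 1 SE, and 1 of the 130 was in a gene with an unadjusted p-value under 0.05. Reversed were Myh11 (-0.35 with the adipocyte, -0.39 with the adipocyte and muscle, -0.43 with the Schwann cell covariate), Pdgfra (-0.16, macrophage covariate) and Cox5a (-0.24, adipocyte and muscle covariates). The labels give no replicate numbers shared between ages, so samples were not paired by number, and the run of library numbers served as the only block. Of the 8 runs of consecutive library numbers, 5 held both ages, and same-run deviations correlated by -0.07 to 0.35. Precision is limited by 5 and 8 samples and by the unknown depth.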
